A study of Homo sapiens with 6 samples.

Results

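The ADAM and ADAMTS proteases were followed in mitotic ERRAS cells, using every gene of the expression table whose symbol is ADAM or ADAMTS followed by a number. This rule found 43 of the 63009 genes read, 22 of them ADAM and 21 ADAMTS entries, under 41 different symbols. ADAMTS10 and ADAMTS13 were each listed under a second identifier, and both second entries were at 0 in all libraries. Of the 43 entries, 16 had a mean of at least 1 FPKM (fragments mapped to a gene, a level scaled for transcript length and library size) over the 6 libraries and are described one by one, 8 ADAM and 8 ADAMTS genes. The threshold fell between ADAMTS10, with a mean of 1.02 FPKM, and ADAM32, with a mean of 0.476 FPKM.

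ERRAS cells are IMR90 primary human lung fibroblasts carrying a retroviral H-RasV12 oncogene joined to the ligand-binding domain of the estrogen receptor, so that Ras becomes active once tamoxifen is given. Control mitotic cells (3 libraries) carried the same construct under G418 selection and were left uninduced. Ras-induced mitotic cells (3 libraries) had been induced for 4 days, with 100 nM tamoxifen per the labels, while the methods text names 100 ng/ml of 4-hydroxytamoxifen (4OHT) instead. Both groups were arrested in mitosis with 1 µM dimethylenastron (DME), an inhibitor of the kinesin Eg5, and only detached mitotic cells were collected, so the values describe drug-arrested cells that came off the dish and not the adherent culture. The libraries are called control 1 to 3 and Ras 1 to 3 after the columns of the table, and the columns do not say which labelled sample each one is.

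ADAM proteins are membrane-anchored metalloproteinases with a disintegrin domain. Many of them are sheddases, which cut growth factors, cytokine precursors, adhesion molecules and receptors from the cell surface, while other ADAM proteins lack a working catalytic site and act in cell adhesion. ADAMTS proteins are secreted relatives with thrombospondin repeats that act on the extracellular matrix, where they cut large proteoglycans, remove the amino-terminal propeptide of fibrillar procollagens or work on microfibrils. Fibroblasts make much of this matrix, and the tissue inhibitors of metalloproteinases (TIMPs) and the membrane protein RECK restrain several of these enzymes.

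The upstream DNA of ADAMTS12 and of the 3 described genes that fell most by log2 fold change is shown here, because these 4 genes carry the opposite changes described below. The sequences come from RefSeq on GRCh38.p14, are written 5′ to 3′ along the strand of the gene, and each covers the 250 bases before the annotated start. ADAMTS12 is chr5:33891991-33892240, ADAM12 is chr10:126388478-126388727, ADAMTS7 is chr15:78811465-78811714 and ADAMTS2 is chr5:179345462-179345711, all on the minus strand. In the ADAMTS12 line the capitals mark TGAATCA, which matches the loose pattern TGANTCA but not the AP-1 consensus TGACTCA, and in the other 3 lines they mark GGGCGG, the letters of a GC box, on either strand with overlapping matches joined.
ADAMTS12: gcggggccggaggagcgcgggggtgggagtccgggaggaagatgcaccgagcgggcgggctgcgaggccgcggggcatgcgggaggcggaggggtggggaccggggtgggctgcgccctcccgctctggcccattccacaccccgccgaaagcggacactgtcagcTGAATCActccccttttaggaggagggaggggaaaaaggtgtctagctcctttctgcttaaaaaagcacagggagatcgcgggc
ADAM12: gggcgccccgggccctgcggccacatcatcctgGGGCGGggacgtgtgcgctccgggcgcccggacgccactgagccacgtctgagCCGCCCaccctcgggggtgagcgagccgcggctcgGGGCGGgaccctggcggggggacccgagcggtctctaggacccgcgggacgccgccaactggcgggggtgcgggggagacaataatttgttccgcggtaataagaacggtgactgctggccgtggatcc
ADAMTS7: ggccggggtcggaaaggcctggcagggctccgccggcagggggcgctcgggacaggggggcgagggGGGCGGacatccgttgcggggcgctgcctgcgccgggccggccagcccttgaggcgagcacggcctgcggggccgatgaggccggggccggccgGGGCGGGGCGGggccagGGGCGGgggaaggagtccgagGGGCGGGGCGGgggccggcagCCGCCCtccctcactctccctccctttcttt
ADAMTS2: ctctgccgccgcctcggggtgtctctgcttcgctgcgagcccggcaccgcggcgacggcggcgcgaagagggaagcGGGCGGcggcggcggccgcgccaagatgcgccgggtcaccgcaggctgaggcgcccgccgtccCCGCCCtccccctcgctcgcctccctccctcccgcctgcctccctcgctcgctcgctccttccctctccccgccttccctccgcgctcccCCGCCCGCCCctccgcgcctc
A window of 300 bases, from 250 before to 50 after the start, was available for 13 of the 16 described genes; ADAM9, ADAMTS1 and ADAMTS4 had no entry. TGANTCA, read on both strands, occurred in 1 of these 13 windows, that of ADAMTS12, where it lies 84 bases before the start, and in 7.71% of all 35116 promoter windows of the table. The AP-1 consensus TGACTCA, on both strands and part of the loose pattern, occurred in 0 of the 13 windows and in 4.95% of all windows. GGGCGG occurred in 11 of the 13, once in ADAMTS12, 3 times in ADAM12, 7 times in ADAMTS7 and 6 times in ADAMTS2, and in 45.0% of all windows. TGACGTCA, the letters of a cyclic AMP response element, occurred in 1 of the 13 windows, that of ADAMTS6, and in 1.85% of all windows. The member windows held a median of 33 CpG dinucleotides (range 9 to 47), against a median of 14 over all windows (range 0 to 77). These matches describe the letters only.

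Among the sheddases and their relatives, ADAM9, ADAM10 and ADAM19 were the most abundant transcripts, and the TACE gene ADAM17 lay well below them. ADAM9, a broadly expressed membrane protease, made up 47.5% of the summed FPKM of all members over the 6 libraries, ADAM10 19.3% and ADAM19 8.90%. ADAM9 was above ADAM10 and ADAM10 above ADAM19 in every pair of libraries. ADAMTS3 also lay above ADAMTS10 without overlap, whereas every other pair of neighbours in the order of mean levels overlapped over the 6 libraries. The plot of levels in each library shows this range from above 100 FPKM down to about 1 FPKM.

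Between the groups, 5 of the 16 genes passed the test (limma on log2(FPKM + 1), Benjamini-Hochberg adjusted p at or under 0.05 over all 13993 genes tested), 2 of them higher and 3 lower in Ras-induced cells. Over all tested genes 16.7% passed, 11.0% higher and 5.67% lower. The 5 were 1 of 8 ADAM genes (ADAM12, lower) and 4 of 8 ADAMTS genes (ADAMTS4 and ADAMTS12 higher, ADAMTS2 and ADAMTS7 lower). The median log2 fold change was -0.05 over the 16 genes, -0.18 over the ADAM genes and 0.11 over the ADAMTS genes, against 0.10 over all tested genes. In 8 of the 16 genes the 3 values of a group lay wholly on one side of the other group's, as they did in 39.9% of all tested genes; these were the 5 altered genes with ADAM9, ADAM15 and ADAMTS3. In these whole-population libraries, fewer cells making a transcript and less of the transcript per cell cannot be told apart. Without control 1 the test passed 3 members, without control 2 it passed 2, without control 3 it passed 3 and without Ras 3 it passed 3. In the same order it passed 978, 876, 1872 and 860 of all 13993 tested genes, against 2336 with every library.

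**Figure D1:**
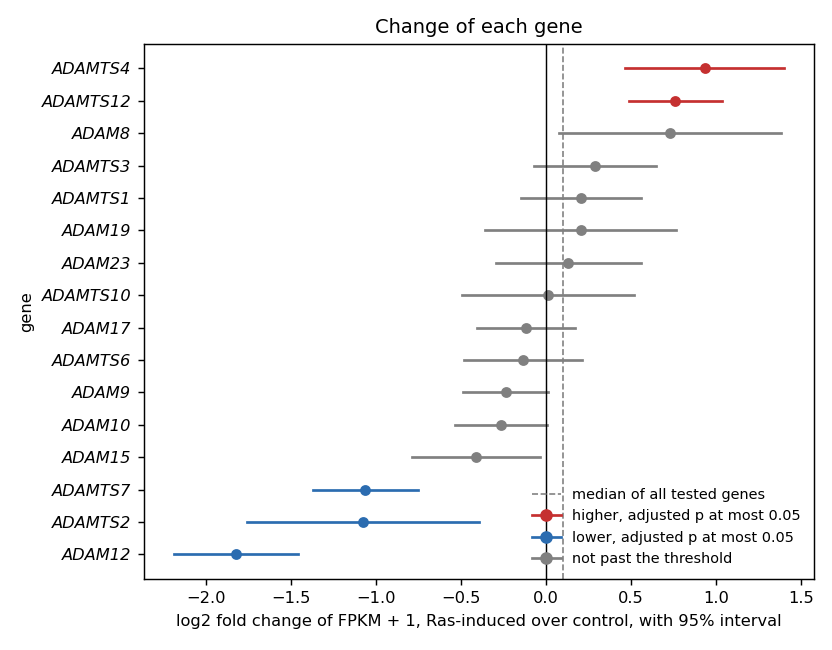
Log2 fold change of FPKM + 1, Ras-induced over control, for each of the 16 described genes, with its 95% interval from limma (3 libraries per group); colour marks genes with an adjusted p at or under 0.05 and the dashed line is the median of all tested genes (0.10). ADAM12 lies lowest at -1.82 and ADAMTS4 highest at 0.93.

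ADAM12, known as meltrin alpha and expressed in developing muscle and activated mesenchymal cells, showed the largest change among the 16 described genes. It was at 6.48, 7.34 and 8.14 FPKM in control 1 to 3 and at 1.09, 1.70 and 1.29 FPKM in Ras 1 to 3. Every Ras-induced value lay under every control value, and the group means were 7.32 ± 0.828 and 1.36 ± 0.311 FPKM (SD, n = 3), a 5.38-fold lower level. The log2 fold change was -1.82 (standard error, SE, 0.15; 95% interval -2.18 to -1.46, adjusted p = 0.00212), and the adjusted p stayed between 0.000336 and 0.0213 over the 14 alternatives run on it. With 0.1 FPKM added in place of 1 the log2 fold change was -2.36, as adding 1 understates the changes of genes at a few FPKM. The gene (ENSG00000148848) spans chr10:127700950-128077046 on GRCh37. It makes a membrane-bound and a secreted form, which values per gene do not separate.

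ADAM19 (meltrin beta), its closest described relative and a sheddase of neuregulin, was measured at 32.4, 36.3 and 21.1 FPKM in control and at 40.5, 36.2 and 26.4 FPKM in Ras-induced libraries. These values overlapped, and the log2 fold change of 0.20 (SE 0.24, adjusted p = 0.579) had a 95% interval from -0.36 to 0.77. The ratio of ADAM12 to ADAM19 was 0.263 ± 0.106 in control cells and 0.0410 ± 0.0121 in Ras-induced cells (SD, n = 3 each).

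Neither of the general sheddases ADAM10 and ADAM17 passed the test. ADAM10, which cuts Notch receptors and N-cadherin, was at 82.9, 69.7 and 76.1 FPKM in control and 71.9, 57.0 and 61.6 FPKM in Ras-induced libraries. Its groups overlapped, with a log2 fold change of -0.26 (SE 0.11, adjusted p = 0.154). ADAM17, which releases TNF and ligands of the EGF receptor, was at 11.4, 9.70 and 11.9 FPKM against 10.3, 8.84 and 11.1 FPKM. Its log2 fold change was -0.11 (SE 0.12, adjusted p = 0.541), with a 95% interval from -0.40 to 0.17. The libraries were not made to keep strand, and 1645 bases of the ADAM17 exons (10.3%) are shared with IAH1 on the opposite strand, a gene at 63.1 FPKM in control and 71.6 FPKM in Ras-induced cells, so reads of the 2 genes cannot be told apart there.

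ADAM9 was at 190.6, 168.6 and 197.3 FPKM in control and at 167.8, 139.4 and 165.1 FPKM in Ras-induced libraries. The groups did not overlap, although control 2 and Ras 1 nearly met, and the means of 185.5 ± 15.0 and 157.4 ± 15.7 FPKM (SD, n = 3) gave a log2 difference of -0.24 (SE 0.10, adjusted p = 0.165). ADAM15, which carries an integrin-binding motif in its disintegrin domain, was at 13.4, 15.1 and 20.3 FPKM against 11.0, 11.7 and 12.8 FPKM. All 3 Ras-induced values of ADAM15 lay under the control values, and the log2 fold change of -0.41 (SE 0.16, 95% interval -0.79 to -0.04) did not pass the test after adjustment (adjusted p = 0.122). Summed over its 22 entries the ADAM family had 333 ± 16.4 FPKM in control and 287 ± 24.6 FPKM in Ras-induced cells (SD, n = 3 each), a sum to which ADAM9 adds most.

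ADAM8, a protease best known from leukocytes, was near the lower limit of the described genes, at 1.95, 1.07 and 1.32 FPKM in control and at 3.24, 1.85 and 4.37 FPKM in Ras-induced libraries. Ras 2 was under control 1, and the log2 fold change of 0.73 (SE 0.27, adjusted p = 0.116) had a wide 95% interval from 0.08 to 1.38. All 7 haematopoietic markers examined were under a mean of 1 FPKM, with summed levels of 0.134 to 0.248 FPKM in control and 0.103 to 0.468 FPKM in Ras-induced libraries. ADAM23, an adhesion protein of neurons without protease activity, was at 3.76, 4.99 and 2.84 FPKM in control and 4.13, 4.09 and 4.53 FPKM in Ras-induced libraries, with a log2 fold change of 0.13 (SE 0.18, adjusted p = 0.641).

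The 2 ADAMTS proteases known to cut cartilage oligomeric matrix protein (COMP), ADAMTS7 and ADAMTS12, changed in opposite directions. ADAMTS12 (ENSG00000151388, chr5:33523640-33892124 on GRCh37) was at 5.31, 5.13 and 5.40 FPKM in control and at 11.1, 9.24 and 8.70 FPKM in Ras-induced libraries. The control values were tight and all Ras-induced values lay above them, with means of 5.28 ± 0.138 and 9.69 ± 1.28 FPKM (SD, n = 3), a 1.84-fold higher level. The log2 fold change was 0.76 (SE 0.11, 95% interval 0.49 to 1.04, adjusted p = 0.00926). Without control 2 the adjusted p of ADAMTS12 was 0.0538.

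ADAMTS7 (ENSG00000136378, chr15:79051548-79103806 on GRCh37) was at 5.39, 5.85 and 6.98 FPKM in control and at 2.48, 2.40 and 2.25 FPKM in Ras-induced libraries. Every Ras-induced value lay well under every control value, and the means were 6.07 ± 0.817 and 2.37 ± 0.116 FPKM (SD, n = 3), a 2.56-fold lower level. The log2 fold change was -1.06 (SE 0.13, 95% interval -1.37 to -0.75, adjusted p = 0.0051), and the adjusted p lay between 0.00176 and 0.0331 over the 14 alternatives. ADAMTS7 has pseudogene copies with which it could share reads. ADAMTS7P3 was at 0.468, 0.479 and 0.419 FPKM in control and 0.141, 0.156 and 0.0934 FPKM in Ras-induced libraries, and ADAMTS7P4 was at 0.856, 1.86 and 1.12 FPKM against 1.48, 0.793 and 1.93 FPKM.

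In control libraries the levels of the pair were close, with a ratio of ADAMTS7 to ADAMTS12 of 1.15 ± 0.139 (SD, n = 3). In Ras-induced libraries the ratio was 0.247 ± 0.0211 (SD, n = 3), and its highest value of 0.260 lay under the lowest control ratio of 1.02. Their summed level moved by less than the spread between libraries, from 11.3 ± 0.899 to 12.1 ± 1.38 FPKM (SD, n = 3). COMP itself was measured at 0.176, 0.0617 and 0.150 FPKM in control and at 0.260, 0 and 0 FPKM in Ras-induced libraries, under the level at which genes were tested.

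ADAMTS2, the main amino-terminal propeptidase of type I procollagen, was the most abundant ADAMTS transcript by its mean over the 6 libraries. It was at 30.2, 30.4 and 21.9 FPKM in control and at 11.6, 19.2 and 8.38 FPKM in Ras-induced libraries. The groups did not overlap, but Ras 2 came close to control 3, and the means were 27.5 ± 4.87 and 13.1 ± 5.55 FPKM (SD, n = 3), a 2.10-fold lower level. The log2 fold change was -1.08 (SE 0.28, 95% interval -1.75 to -0.40), and its adjusted p of 0.0476 lay just inside the threshold. It exceeded the threshold without control 1 (0.147), control 2 (0.157), control 3 (0.0752), Ras 1 (0.143) or Ras 3 (0.125), with no filter on low values (0.122) and in limma without a mean-variance trend (0.0624). The gene (ENSG00000087116) spans chr5:178537854-178772462 on GRCh37.

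Fibrillar procollagen transcripts, whose protein products are substrates of this class, are set beside ADAMTS2 here. COL1A1 was at 1144, 1492 and 1398 FPKM in control and at 531, 848 and 271 FPKM in Ras-induced libraries. COL1A2 was at 760, 994 and 1017 FPKM against 373, 476 and 289 FPKM, and COL3A1 at 213, 278 and 270 FPKM against 118, 165 and 59.4 FPKM. In all 3 and in ADAMTS2, Ras 2 had the highest and Ras 3 the lowest of the Ras-induced values, but in control ADAMTS2 was lowest in control 3 and the procollagen genes in control 1. COL1A2 fell, with a log2 fold change of -1.30 (SE 0.20, adjusted p = 0.0101), and lost the call without control 2 (0.0576) or Ras 1 (0.0518). COL1A1, at a log2 fold change of -1.43 (adjusted p = 0.0501), and COL3A1, at -1.25 (adjusted p = 0.0553), did not pass.

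ADAMTS3, the related propeptidase that also processes the lymphatic growth factor VEGF-C, was at 1.42, 1.51 and 1.55 FPKM in control and at 2.25, 2.09 and 1.82 FPKM in Ras-induced libraries. All Ras-induced values lay above the control values, with a log2 fold change of 0.29 (SE 0.15, 95% interval -0.07 to 0.65) that did not pass (adjusted p = 0.231). The ratio of ADAMTS2 to ADAMTS3 was 18.5 ± 3.89 in control and 6.33 ± 2.49 in Ras-induced cells (SD, n = 3 each). ADAMTS14, the other propeptidase of this class, had a mean of 0.0987 FPKM. Over the class the summed level was 29.1 ± 4.85 FPKM in control and 15.2 ± 5.69 FPKM in Ras-induced cells (SD, n = 3 each), most of it ADAMTS2.

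Of the proteoglycanases, which cut aggrecan and versican, ADAMTS4 rose. It was at 1.15, 1.58 and 1.17 FPKM in control and at 2.77, 4.47 and 3.06 FPKM in Ras-induced libraries. The groups were apart, with means of 1.30 ± 0.245 and 3.44 ± 0.911 FPKM (SD, n = 3), a 2.64-fold higher level. The log2 fold change was 0.93 (SE 0.19, 95% interval 0.47 to 1.40, adjusted p = 0.0239), a scale that understates the change of a gene at so low a level. The adjusted p of ADAMTS4 passed 0.05 without control 1 (0.0769), control 2 (0.0558), control 3 (0.0583) or Ras 3 (0.0652), and with no filter on low values (0.0664). The gene (ENSG00000158859) spans chr1:161154092-161168844 on GRCh37.

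ADAMTS1, the other proteoglycanase with a mean of at least 1 FPKM, was at 4.76, 4.68 and 4.10 FPKM in control and at 6.34, 5.53 and 4.36 FPKM in Ras-induced libraries. The groups overlapped through Ras 3, and the log2 fold change was 0.21 (SE 0.15, adjusted p = 0.371). ADAMTS5, the neighbour of ADAMTS1 on chromosome 21 and known as the main aggrecanase of mouse cartilage, was under 1 FPKM in every library, at 0.979, 0.813 and 0.252 FPKM in control and 0.243, 0.338 and 0.108 FPKM in Ras-induced libraries. ADAMTS8, ADAMTS9 and ADAMTS15 had means of 0.0790, 0.121 and 0.0425 FPKM, and ADAMTS20 was listed at 0 in all libraries. The ratio of ADAMTS4 to ADAMTS1 was 0.288 ± 0.0484 in control and 0.650 ± 0.191 in Ras-induced cells (SD, n = 3 each). VCAN, which codes for the substrate versican, was at 68.0, 77.6 and 95.8 FPKM in control and at 56.1, 61.7 and 65.5 FPKM in Ras-induced libraries, with a log2 fold change of -0.38 that did not pass (adjusted p = 0.104).

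Neither of the pair known to bind or process fibrillin microfibrils passed the test. ADAMTS6 was at 6.88, 8.44 and 9.48 FPKM in control and at 6.51, 7.32 and 8.45 FPKM in Ras-induced libraries, with a log2 fold change of -0.13 (SE 0.15, adjusted p = 0.555). ADAMTS10 was at 0.993, 0.740 and 1.30 FPKM against 1.08, 0.750 and 1.25 FPKM, and its log2 fold change of 0.01 (SE 0.21, 95% interval -0.49 to 0.52, adjusted p = 0.973) had no stable sign. Over all 21 entries the ADAMTS family summed to 56.8 ± 3.43 FPKM in control and 45.3 ± 6.52 FPKM in Ras-induced cells (SD, n = 3 each). Without ADAMTS2 the other 20 entries summed to 29.4 ± 1.79 and 32.2 ± 1.54 FPKM (SD, n = 3 each), so the lower family sum lay in ADAMTS2.

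The other 27 entries were under a mean of 1 FPKM and none reached 1 FPKM in any library. Of these 27, 8 were listed at 0 in all 6 libraries, 12 were above 0 with a mean under 0.1 FPKM and 7 had a mean of at least 0.1 FPKM. The highest were ADAM32 (0.476 FPKM), ADAMTS5 (0.455 FPKM) and ADAM28 (0.370 FPKM), a protease of lymphocytes. ADAM2, ADAM7 and ADAM18, known from sperm and epididymis, were at or near 0, with a single value above 0 among them, 0.0205 FPKM for ADAM7 in control 2. ADAMTS13, which cuts von Willebrand factor and is made mainly in liver, had a mean of 0.182 FPKM in its main entry.

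Of 81 partners, inhibitors and substrates of these proteases in 5 lists, 56 were tested and 23 passed, with 7 at a higher and 16 at a lower level after induction, against the 16.7% of all tested genes given above. Their median log2 fold change was -0.28. The split by direction over all genes depends on the scaling between libraries. It was 1543 higher and 793 lower in the deposited FPKM, 1044 and 1109 after quantile normalization and 921 and 1101 after upper-quartile scaling, while the same 5 members were called under all 3.

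Among 13 maturation and trafficking partners of sheddases, 8 were tested and 3 were altered, 2 higher and 1 lower. The median log2 fold change of these 8 was 0.26, against 0.10 over all tested genes, of which 16.7% were altered. RHBDF1, an iRhom that escorts ADAM17 to the cell surface, rose from 6.17 ± 0.347 to 13.3 ± 4.29 FPKM (SD, n = 3; log2 fold change 0.95, SE 0.21, adjusted p = 0.0283). Its call was lost without control 1 (0.0972), control 2 (0.0959), control 3 (0.0857), Ras 1 (0.0517) or Ras 3 (0.0971), and with no filter on low values (0.0772). Of the 4 proprotein convertases listed, which remove the inhibitory prodomain of ADAM and ADAMTS enzymes, PCSK5 and PCSK6 were under 1 FPKM and untested. PCSK7 fell from 77.7 ± 6.0 to 32.6 ± 5.26 FPKM (SD, n = 3; log2 fold change -1.24, SE 0.13, adjusted p = 0.00326). FURIN rose from 44.8 ± 5.50 to 62.6 ± 5.12 FPKM (SD, n = 3; log2 fold change 0.48, SE 0.12, adjusted p = 0.0365). The FURIN call was lost on leaving out any 1 library (0.053 to 0.111) and under both other scalings (0.0538 with quantile normalization and 0.0584 with upper-quartile scaling), with no filter (0.080) and without a trend (0.0557).

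Of 7 inhibitors, 5 were tested and 4 were altered, 1 higher and 3 lower. The median log2 fold change of these 5 was -0.43, against 0.10 over all tested genes, of which 16.7% were altered. TIMP1 was at 390.5, 494.9 and 458.5 FPKM in control and at 701.5, 999.8 and 836.7 FPKM in Ras-induced libraries, so that every Ras-induced value lay above the controls (log2 fold change 0.91, SE 0.15, adjusted p = 0.0124). Its call was lost without control 1 (0.0584) or Ras 3 (0.0616). TIMP2 fell from 262 ± 4.59 to 194 ± 6.36 FPKM (SD, n = 3; log2 fold change -0.43, SE 0.07, adjusted p = 0.0094). RECK, a membrane-anchored inhibitor, fell from 23.8 ± 3.66 to 12.2 ± 1.62 FPKM (SD, n = 3; log2 fold change -0.90, SE 0.15, adjusted p = 0.011, and 0.0588 without control 2). The protease trap A2M fell from 4.26 ± 1.40 to 1.28 ± 0.381 FPKM (SD, n = 3; log2 fold change -1.19, SE 0.25, adjusted p = 0.0248), a call lost without control 1 (0.0796), control 2 (0.0925), Ras 1 (0.0698), Ras 2 (0.0601) or Ras 3 (0.0865), and with no filter (0.0729). TIMP3, the strongest natural inhibitor of ADAM17 and of the aggrecanases, was at 77.0, 79.6 and 114 FPKM against 118, 110 and 117 FPKM, and its log2 fold change of 0.37 did not pass (adjusted p = 0.150) except without control 3 (0.0135). TIMP4 and PAPLN had group means under 1 FPKM.

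Of 33 membrane proteins shed by ADAM proteases, 23 were tested and 8 were altered, 4 higher and 4 lower. The median log2 fold change of these 23 was -0.04, against 0.10 over all tested genes, of which 16.7% were altered. The 4 higher genes were NOTCH1 and 3 ligands of the EGF receptor family. NOTCH1 rose from 13.7 ± 1.40 to 18.6 ± 0.868 FPKM (SD, n = 3, adjusted p = 0.0328). EREG was at 1.18, 1.56 and 2.24 FPKM in control and at 36.3, 30.2 and 39.6 FPKM in Ras-induced libraries (log2 fold change 3.78, SE 0.17, adjusted p = 0.000236). AREG rose from 1.80 ± 0.807 to 17.0 ± 7.40 FPKM (SD, n = 3, adjusted p = 0.0079) and NRG1 from 2.67 ± 0.388 to 6.85 ± 1.88 FPKM (SD, n = 3, adjusted p = 0.0144), the latter with an adjusted p of 0.0643 without control 1 and 0.0519 without control 2. HBEGF, a ligand of the same family, was at 9.46 ± 1.29 and 9.01 ± 0.967 FPKM (SD, n = 3, adjusted p = 0.775). The ligands TGFA, BTC and EPGN, also on the list, were under 1 FPKM and untested.

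The receptor tyrosine kinase AXL showed the largest fall of the shed proteins, from 174 ± 9.61 to 36.5 ± 0.740 FPKM (SD, n = 3; log2 fold change -2.22, SE 0.07, adjusted p = 9.77e-05). CSF1, the macrophage growth factor, fell from 12.5 ± 2.85 to 3.71 ± 0.835 FPKM (SD, n = 3, adjusted p = 0.00618). CDH2, which codes for the ADAM10 substrate N-cadherin, fell from 91.7 ± 4.97 to 37.5 ± 2.96 FPKM (SD, n = 3, adjusted p = 0.0013). ADAM10 and ADAM17 themselves, as given above, were not called.

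Of 22 matrix and plasma proteins that ADAMTS enzymes cut or bind, 16 were tested and 7 were altered, all 7 lower, with a median log2 fold change of -0.75 and 14 of 16 genes below 0. Over all tested genes 5.67% were called lower and 5222 of 13993 were below 0. The largest fall was that of DCN, the small proteoglycan decorin, which was at 184, 234 and 335 FPKM in control and at 25.1, 28.2 and 20.8 FPKM in Ras-induced libraries (log2 fold change -3.26, SE 0.22, adjusted p = 0.0013). NID2, a basement membrane protein, fell from 70.6 ± 8.86 to 32.5 ± 11.8 FPKM (SD, n = 3, adjusted p = 0.0251). The NID2 call was lost without control 1 (0.0955), control 2 (0.101), control 3 (0.0554), Ras 1 (0.096) or Ras 3 (0.0755), and with no filter (0.0729). Of the 6 ADAMTS-like proteins, which have the ancillary domains of ADAMTS enzymes but no protease domain, 4 were tested and ADAMTSL5 fell, from 3.95 ± 0.715 to 2.15 ± 0.20 FPKM (SD, n = 3; log2 fold change -0.65, SE 0.16, adjusted p = 0.0363). It lost the call without any 1 library other than control 3 (0.0658 to 0.111), and with no filter (0.0938).

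HRAS, whose reads can come from the construct or the endogenous gene, was at 1175, 1176 and 1140 FPKM in control and at 1439, 1847 and 1473 FPKM in Ras-induced libraries (log2 fold change 0.44, adjusted p = 0.0431). The HRAS call was lost on leaving out any 1 library (0.0598 to 0.156) and with upper-quartile scaling (0.0925). It was also lost with no filter on low values (0.166), without a trend (0.0612) and with the replicate block (0.0526). All 9 fibroblast markers were at a mean of at least 1 FPKM, with summed levels of 5396 to 6076 FPKM in control and 3554 to 4970 FPKM in Ras-induced libraries. Of the 9, COL1A2 and THY1 were altered, both lower, and most of the fall in the sum lay in COL1A1 and COL1A2, while FAP (39.0 ± 17.0 and 66.3 ± 3.12 FPKM; SD, n = 3) and VIM (2149 ± 71.4 and 2248 ± 320.0 FPKM; SD, n = 3) had higher means in Ras-induced cells and did not pass. The 8 mitotic markers summed to 1633 to 1710 FPKM in control and 1350 to 1487 FPKM in Ras-induced libraries. Of these 8 markers, 4 (TOP2A, CENPF, BUB1 and PLK1) were altered, all 4 lower, and all 8 had a log2 fold change below 0. Among all 13993 tested genes, 5.67% were called lower and 5222 were below 0. Of 7 epithelial markers 5 were at a mean of at least 1 FPKM (summed levels 26.6 to 40.1 and 27.2 to 29.8 FPKM), with EPCAM and CDH1 under it, and of 6 endothelial markers only TEK was (summed levels 14.7 to 16.6 and 4.85 to 5.41 FPKM), with PECAM1 at 0. The part of these differences in the results above was not tested.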

How the data were processed

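RNA-seq was run on 6 libraries of DME-arrested mitotic ERRAS cells, 3 control and 3 Ras-induced. The authors trimmed reads with Trim Galore 0.3.0, aligned paired-end poly(A) reads to hg19 with TopHat2 and Ensembl build 73 junctions, and deposited FPKM values per gene and library from Cufflinks. Libraries were TruSeq, with no strand kept. Absolute depth is left out, as neither read counts nor alignment statistics of the study were analysed here; steps between low FPKM values gave depths relative to control 1 of 0.951 to 1.17 in control and 0.851 to 1.13 in Ras-induced libraries. The table has 18 unnamed further columns, not used, holding extra values of 120 genes, which were left out (no member among them); 1 repeated header line was dropped. Columns name group and number but not the sample. The authors' cuffdiff comparison (group FPKM, fold change, test statistic, p-value and q-value) was not used.

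The 13993 genes averaging 1 FPKM or more were fitted by limma 3.58.1 under R 4.3.3 (lmFit, eBayes with trend) as log2(FPKM + 1). P-values were two-sided and adjusted by Benjamini and Hochberg over all of these genes; altered means adjusted p at or under 0.05. The procedure was tested on simulated data with independent noise in each library, which cannot test pairing or scaling between libraries. The labels name no separate cultures, although the study describes independent repeats; the p-values measure the spread between these libraries. No batch is given in the labels. An exact permutation test of 3 libraries against 3 cannot go below p = 0.1, so none is given. Alternatives were a pseudocount of 0.1, other filters, quantile and upper-quartile scaling, no trend, a replicate block, a fold threshold and each library left out. Every member at a mean of at least 1 FPKM is named, and for each pathway list up to 3 altered genes in each direction by fold change, all inhibitors, and HRAS. COL1A1, COL3A1, VCAN, COMP, HBEGF, NOTCH1, TGFA, BTC, EPGN, IAH1 and the pseudogenes were added after their values were seen. The members and gene lists were chosen with earlier results of these data known. Gene coordinates are from GENCODE 44 on GRCh37, which lacks 3 of the 43 identifiers; promoter windows are from RefSeq on GRCh38.p14. Python 3.11.15 with pandas 2.3.3, numpy 2.4.6 and matplotlib 3.10.9 made tables and figures.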

Additional observations from a re-analysis of the deposited data

How the results depend on the processing

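ADAM12 and ADAMTS7 kept direction and call under every alternative run on them, whereas ADAMTS12, ADAMTS4 and ADAMTS2 each lost the call under at least 1 library left out; the causes were not tested. The number of altered members was 5 and became 3 with no filter on low values and 3 when a log2 fold change of 1 or more in size was also required, and lay between 2 and 5 on leaving out 1 library. For all genes these counts were 2336, 1518, 548 and 860 to 1872, and for the pathway genes 23, 14, 13 and 10 to 20; the fold requirement removes calls by construction and a left-out library leaves fewer samples. Where a group was left with 2 libraries the spread was still pooled over both groups. Signs reversed for ADAM19 (-0.0199) and ADAM23 (-0.0257) without control 3, and for ADAMTS10 with quantile normalization (-0.0561), upper-quartile scaling (-0.0431), and without control 2 (-0.0866), Ras 1 (-0.0083) or Ras 3 (-0.0673), none of them called; leaving out 1 library gave at most 0.379, 0.295 and 0.115 for the 3 genes. Same-numbered libraries had correlations of deviations of -0.003, 0.043 and 0.048, all under 0.1. Control 2 and control 3 correlated best with their own number and control 1 with Ras 2 (0.031). Taken over all tested genes at once, these correlations do not decide whether the column numbers pair the libraries. A replicate block took the SE from 0.24 to 0.098 for ADAM19 and from 0.11 to 0.069 for ADAM10. For ADAMTS7 it went from 0.13 to 0.14. With the replicate block 5 members (the same 5), 2310 of all genes and 29 pathway genes were altered, and HRAS had an adjusted p of 0.0526. Over the 35 named genes, 408 single-gene alternatives kept direction and call, 73 lost the call, 1 gained it and 7 reversed. Over all tested genes the median log2 fold change, 0.10 as deposited, became 0.01 by quantile normalization and 0.0047 by upper-quartile scaling, so changes of that size depend on the scaling. Depth was used here only relative to control 1, and how far it limits members near 1 FPKM was not tested.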

Other observations

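Relatives of the family that the symbol rule did not take in were read from the same table, chosen after their values were seen. ADAMTSL1, a secreted ADAMTS-like matrix protein, was at 5.96, 9.21 and 11.5 FPKM in control and at 5.52, 5.23 and 8.74 FPKM in Ras-induced libraries, with overlapping groups (log2 fold change -0.39, adjusted p = 0.349 from limma). ADAMTSL4, known for its role in the lens zonule, was at 2.32, 1.81 and 3.28 FPKM against 3.27, 2.92 and 3.88 FPKM (log2 fold change 0.34, adjusted p = 0.265 from limma). THSD4, an ADAMTS-like protein that binds fibrillin, was at 13.7, 14.8 and 19.1 FPKM against 23.6, 16.3 and 21.4 FPKM (log2 fold change 0.34, adjusted p = 0.216 from limma). ADAMTSL5 was thus the 1 altered gene of the 4 tested in its list. Among pseudogene entries ADAM1A had a mean of 0.457 FPKM, and ADAM20P2, ADAM20P3, ADAM24P and ADAM3B were listed at 0 in all libraries, as was ADAMDEC1, a macrophage and gut protease. The endothelial marker TEK, a receptor kinase, fell from 15.3 ± 1.03 to 4.93 ± 0.310 FPKM (SD, n = 3), while PECAM1 was at 0 in every library.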
